A study of Mus musculus with 60 samples.

Results

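The mitochondrial ribosomal proteins are described here as the genes whose symbols begin with Mrpl or Mrps followed by a number: 78 genes, 49 named for the large subunit and 29 for the small, among 24982 gene rows. All 78 reached 1 FPKM (fragments per kilobase of transcript, scaled to the library's mapped total) in at least 3 libraries of both deposited tables, a filter that 11911 genes passed in the first table and 12231 in the second. The RNA came from the mouse line C3H10T1/2, mesenchymal cells that can be turned into adipocytes. Libraries were made on days 0, 2, 4 and 6, 3 per group. Per the labels' protocols, confluent cells were switched on day 0 to an adipogenic mixture of dexamethasone, IBMX, insulin, rosiglitazone and T3, and on day 2 to insulin without the other agents. The day 0 groups are the baseline that precedes this treatment, although the hour of their harvest is not given in the labels. The first table holds WT and Tet1-KO cells (24 libraries) and the second holds 23-NC, 23-Tet1 and 23-CATA cells (36 libraries). How the knockout was made, how many clones it came from, and what the names 23-NC, 23-Tet1 and 23-CATA stand for are not given in the sources used here. In 11 of the 23-Tet1 samples a number runs on from the genotype tag, so the title was used. The series' title places the study on TET1, an enzyme that oxidises methylated cytosine in DNA, in adipocyte formation.

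The mitoribosome translates the few proteins encoded by mitochondrial DNA, all of them subunits of the respiratory chain and the ATP synthase. Its own proteins are encoded in the nucleus, made in the cytosol and imported. Many have a counterpart in the bacterial ribosome and others are particular to mitochondria. Mrpl10, Mrpl11 and Mrpl12 belong to the stalk that recruits translation factors, and Mrpl45 sits at the tunnel exit where new membrane proteins leave. Adipocytes build up mitochondria as they mature. A few symbols no longer match the protein's place: Mrps18a and Mrps30 sit in the large subunit, and Mrps36 is now regarded as a part of the ketoglutarate dehydrogenase complex. Counts and medians by subunit follow the symbol throughout, so those of the small subunit include these genes.

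The members' genes lie on 17 chromosomes. RefSeq promoter windows (build GRCm38.p6, 250 bases before to 50 after the start) were available for 69 members, 43 large and 26 small. Each window was searched on both strands for 6 exact words: CCGGAAGT (the ETS family, to which GABP belongs), GCATGCGC (NRF1), AAGATGGC (YY1), TCAAGGTCA (estrogen-related receptors), CACGTG (E-box) and CCAAT (NF-Y). The ETS word lay in 12 members (17.4%), against 9.62% of 9284 other genes tested and 4.27% of all 26956 other genes with a window. A gene with several windows was counted if any of them held the word. The YY1 word also lay in 12 (17.4%), against 5.43% and 3.15%, and the NRF1 word in 8 (11.6%), against 6.19% and 3.03%. The E-box lay in 5 (7.25%, against 12% and 8.09%) and CCAAT in 27 (39.1%, against 43.7% and 41.1%). No member held TCAAGGTCA, which 0.28% of the other genes tested held. Member windows had a median GC content of 58.7%, against 52.7% in all other windows. A match describes letters and not a bound site.

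The 7 windows printed here belong to the member with the widest rise (Mrpl12), the member with a course of its own in 23-Tet1 cells (Mrps6), the members that were alone in holding both NRF1 and YY1 (Mrpl32), both NRF1 and ETS (Mrpl33) or both ETS and YY1 (Mrps27), chosen after the search, and the 1 pair of members whose windows overlap. They run 5′ to 3′ on the gene's strand, and capitals mark a searched word on either strand.
Mrpl12 at chr11:120484387-120484686, + strand, no match: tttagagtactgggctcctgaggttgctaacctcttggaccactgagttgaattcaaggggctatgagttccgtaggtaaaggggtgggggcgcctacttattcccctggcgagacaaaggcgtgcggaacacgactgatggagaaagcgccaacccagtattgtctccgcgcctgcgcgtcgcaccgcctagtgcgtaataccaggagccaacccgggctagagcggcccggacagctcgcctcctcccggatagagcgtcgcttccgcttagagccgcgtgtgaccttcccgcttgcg
Mrps6 at chr16:92058086-92058385, + strand, no match: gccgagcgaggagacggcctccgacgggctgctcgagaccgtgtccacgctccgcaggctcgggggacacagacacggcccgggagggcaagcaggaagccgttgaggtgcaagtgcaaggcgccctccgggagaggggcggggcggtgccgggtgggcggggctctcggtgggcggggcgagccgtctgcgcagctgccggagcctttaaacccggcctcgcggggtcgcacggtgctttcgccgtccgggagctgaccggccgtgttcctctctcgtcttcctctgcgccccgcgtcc
Mrpl32 at chr13:14612988-14613287, - strand, 4 NRF1 matches of which the first 2 overlap, with YY1 and CCAAT: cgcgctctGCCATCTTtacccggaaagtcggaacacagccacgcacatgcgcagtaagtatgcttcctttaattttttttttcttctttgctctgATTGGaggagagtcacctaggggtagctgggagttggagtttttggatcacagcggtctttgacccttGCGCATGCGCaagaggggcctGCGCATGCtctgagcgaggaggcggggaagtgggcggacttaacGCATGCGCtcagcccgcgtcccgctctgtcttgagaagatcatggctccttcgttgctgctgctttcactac
Mrpl33 at chr5:31613701-31614000, + strand, CCAAT, NRF1 and ETS: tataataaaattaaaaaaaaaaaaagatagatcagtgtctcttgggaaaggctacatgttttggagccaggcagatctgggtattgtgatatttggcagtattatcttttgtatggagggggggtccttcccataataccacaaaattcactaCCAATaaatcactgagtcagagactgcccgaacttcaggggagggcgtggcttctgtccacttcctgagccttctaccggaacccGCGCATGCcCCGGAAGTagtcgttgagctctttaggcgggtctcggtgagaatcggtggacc
Mrps27 at chr13:99344536-99344835, + strand, ETS and YY1: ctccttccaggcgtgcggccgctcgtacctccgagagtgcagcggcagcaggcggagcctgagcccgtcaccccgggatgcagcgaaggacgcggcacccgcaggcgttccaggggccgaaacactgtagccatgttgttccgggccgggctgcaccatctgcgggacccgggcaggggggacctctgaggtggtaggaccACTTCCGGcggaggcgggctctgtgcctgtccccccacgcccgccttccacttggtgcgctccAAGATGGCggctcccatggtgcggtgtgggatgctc
Mrpl46 at chr7:78783040-78783339, - strand, no match: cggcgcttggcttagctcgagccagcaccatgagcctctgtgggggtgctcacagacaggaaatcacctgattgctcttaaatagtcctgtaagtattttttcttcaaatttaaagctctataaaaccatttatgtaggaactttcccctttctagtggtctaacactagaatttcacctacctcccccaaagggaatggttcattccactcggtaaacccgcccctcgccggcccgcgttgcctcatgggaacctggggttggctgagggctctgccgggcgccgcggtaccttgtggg
Mrps11 at chr7:78782881-78783180, + strand, YY1: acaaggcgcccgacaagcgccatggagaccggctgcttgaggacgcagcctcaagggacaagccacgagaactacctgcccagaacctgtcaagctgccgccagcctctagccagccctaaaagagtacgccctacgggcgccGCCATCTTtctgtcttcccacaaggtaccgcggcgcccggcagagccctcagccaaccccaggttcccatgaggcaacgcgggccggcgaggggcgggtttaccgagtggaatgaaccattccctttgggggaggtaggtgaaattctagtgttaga
Mrpl46 and Mrps11 are transcribed away from each other, and their windows share 141 bases.

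The most abundant members by mean FPKM in the first table were Mrps6 (1138), a small subunit protein, Mrpl52 (705.3), Mrpl12 (702.4), Mrpl33 (466.6) and Mrps21 (434.2). In the second table the same 5 averaged 565.4 for Mrps6, 269 for Mrpl52, 189 for Mrpl12, 168.1 for Mrpl33 and 122.7 for Mrps21. The scarcest were Mrpl48 (4.488 and 1.6 in the first and second table), Mrpl35 (6.265 and 3.896), Mrpl19 (7.094 and 5.321) and, in the small subunit, Mrps25 (11.91 and 8.077). Mean FPKM in the first table thus ran from 4.488 to 1138 within the set. The median member level was 89.0 FPKM for the large and 82.9 for the small subunit in the first table, and 40.7 and 43.3 in the second. The order of the 78 members was alike between the tables (Spearman's rho 0.96 across genes, which are not independent replicates). Across the 8 groups of the first table, the range of a member's group means ran from 0.79 (Mrps31) to 3.36 (Mrpl12) log2 units, with a median of 1.55. Across the 12 groups of the second it ran from 0.69 (Mrpl48) to 3.13 (Mrps6), with a median of 1.36.

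Changes are given in log2(FPKM + 1), minus the median change of all genes tested in the same comparison. A member is called where limma's adjusted p over all genes tested was below 0.05. That test is on the change as fitted, before the median is taken off. The median of all genes lay between -0.52 (WT day 4 against day 0) and 0.18 for WT and Tet1-KO, and between -0.34 and 0.11 for the other populations. FPKM sums per library also differed (612993 to 1060628 for the first table, 503085 to 733105 for the second). Depth, estimated from the steps between low FPKM values, was about 11.8 M to 19.3 M fragments (M for mega-) in 59 of 60 libraries, approximate because it depends on an assumed length correction and search range. The labels leave unsaid whether a group's 3 libraries were grown separately, and the tests then cover library-to-library spread that may be technical.

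The knockout label was checked on Tet1 itself, a scarce transcript. On day 0, Tet1 stood at 0.24 to 0.26 FPKM in Tet1-KO and at 0.88 to 1.12 in WT (p = 0.1 in a two-sided exact permutation test, a floor set by 3 libraries a side). On later days it was below 0.12 FPKM in both, where it checks nothing. In the second table Tet1 was at most 0.12 FPKM in 23-NC, 4.04 to 7.46 in 23-Tet1 and 5.75 to 21.56 in 23-CATA. Some libraries stood apart. Tet1-KO day 6 replicate 2 had 11805 genes above 0, against 13837 to 15063 elsewhere, and the lowest small subunit median of the knockout (5.25). The Tet1-KO day 2 replicates differed, with large subunit medians of 5.89, 6.45 and 6.32. Replicate 3 of Tet1-KO day 0 (5.40) lay below its fellows (6.09 and 5.87), and replicate 1 of 23-NC day 0 (5.30) above its own (4.73 and 4.68).

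The summed FPKM of 9 adipocyte markers (Fabp4, Adipoq, Plin1, Cidec, Lpl, Cd36, Lep, Pparg and Cebpa) went up in all 5 populations, and not always with the members. It went from 93.93 to 234.4 in WT day 0 libraries to 50480 to 65930 on day 2, 89610 to 108900 on day 4 and 63200 to 67540 on day 6, while Lep stayed at or below 0.02. At its height the sum was mostly Fabp4, which reached 97235.63 FPKM in the first table. The next highest marker there, Cidec, reached 6642.34. The sum of 8 mesenchymal markers went the other way in WT, from 8427 to 8987 on day 0 to 757.1 to 980.8 on day 4. Summed endothelial and epithelial markers stayed at or below 3.17 FPKM in every library. Macrophage markers summed to 45.99 at most in the first table and reached 125 to 132.3 in 23-NC day 6. These highest sums were nearly all Cd68 (up to 45.98 and 132.32). Adgre1, Csf1r, Ptprc and Itgam stayed at or below 0.68 in every library. In 23-NC the adipocyte marker sum was 59.72 to 66.11 on day 0 and 2722 to 2912 on day 2. The members' median change relative to all genes was 0.03 there. In 23-Tet1 the adipocyte marker sum was 28.04 to 40.11 on day 0 and 1615 to 1863 on day 2. The members' median change there was -0.16. The part of these shifts in the members' changes was not tested, and in bulk RNA more cells of a type and more RNA per cell cannot be told apart.

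**Figure D1:**
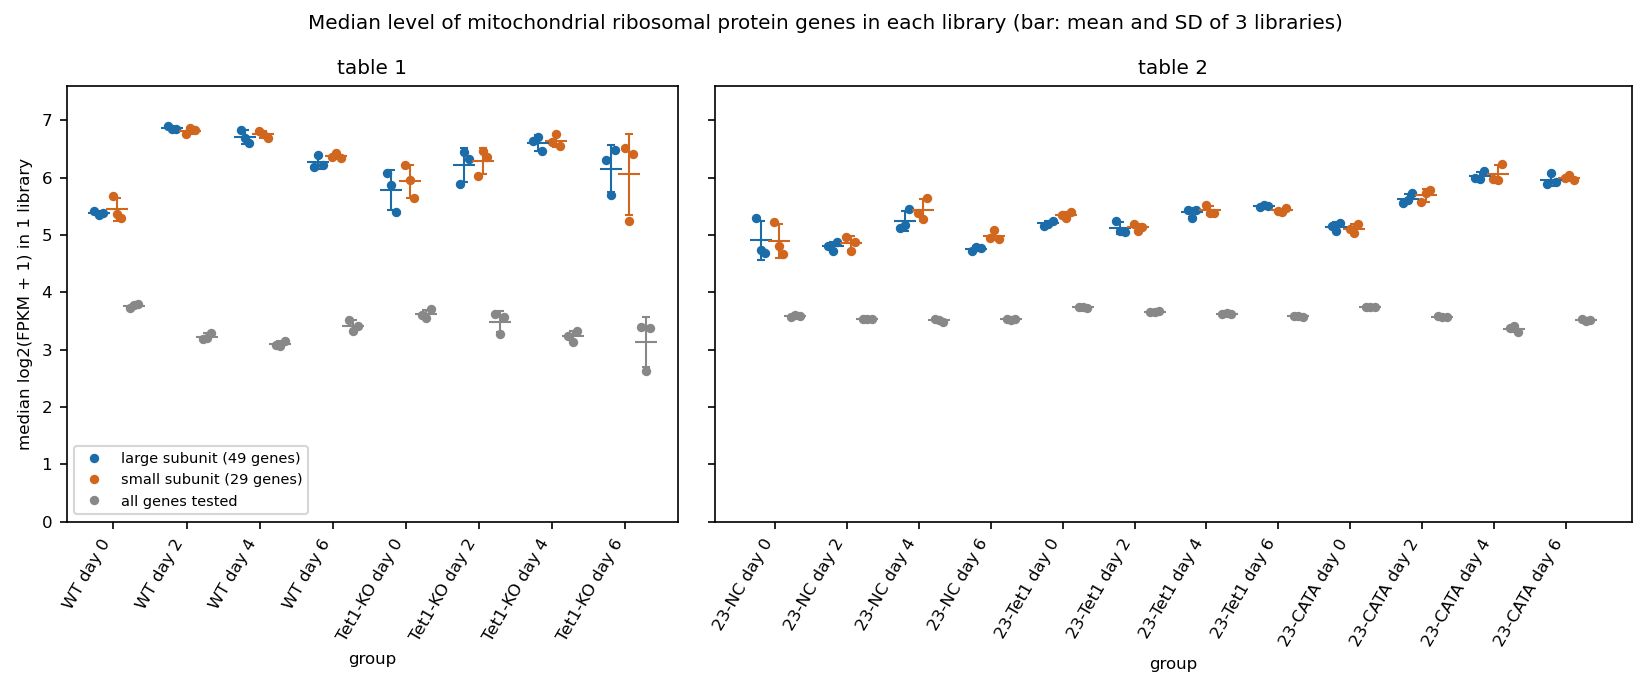
Median log2(FPKM + 1) of the large and of the small subunit members in each library (points), by group, with bars for the mean and SD of 3 libraries, with WT and Tet1-KO on the left and the 23- populations on the right. In WT the large subunit median went from 5.39 on day 0 to 6.87 on day 2, and in 23-CATA from 5.15 on day 0 to 6.03 on day 4.

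In WT cells almost the whole set rose within 2 days. The library median of the large subunit went from 5.39 ± 0.04 on day 0 to 6.87 ± 0.02 on day 2, 6.71 ± 0.12 on day 4 and 6.27 ± 0.11 on day 6 (SD, n = 3). The small subunit followed, at 5.45 ± 0.20, 6.82 ± 0.05, 6.76 ± 0.05 and 6.38 ± 0.05. Meanwhile the median of all genes tested went down from 3.77 to 3.23, 3.10 and 3.42. On day 2, 45 of 49 large and 28 of 29 small members were called higher and none lower (18.9% of all genes tested were called higher and 43.2% lower). On day 4 the counts were 46 and 27 higher (18.1% and 49.2% of all genes), and on day 6, 35 and 19 higher (19.2% and 37.4%). Medians relative to all genes were 1.72, 1.69 and 1.04 for the large subunit and 1.79, 1.76 and 1.23 for the small. The highest mean fell on day 2 for 32 large and 18 small members and on day 4 for 15 and 10, and the lowest on day 0 for 48 and 27.

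Mrpl12, the stalk protein, also reported to bind the mitochondrial RNA polymerase, showed the widest change. Its FPKM was 142, 124 and 127 in the WT day 0 libraries, 1429, 1388 and 1245 on day 2, 1364, 1283 and 1162 on day 4, and 543, 602 and 617 on day 6. Every later library was above every day 0 library, and day 6 lay between day 0 and the peak. The change was 3.75 ± 0.27 (SE) on day 2 (limma, adjusted p = 7.85e-09) and still 2.44 ± 0.27 on day 6 (adjusted p = 1.74e-06). Among the other large subunit proteins, Mrpl20 changed by 2.81 ± 0.31 on day 2 (adjusted p = 2.37e-06), Mrpl55 by 2.52 ± 0.22 (1.39e-07), Mrpl38 by 2.45 ± 0.34 (3.61e-05) and Mrpl51 by 2.41 ± 0.22 (3.3e-07). Mrps18a, a large subunit protein despite its name, changed by 2.67 ± 0.27 (9.22e-07), and Mrpl16 reached 2.69 ± 0.19 on day 4 (1.62e-08). No member lay below the median of all genes on day 2, where the smallest relative change was 0.70.

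Mrpl45, the tunnel-exit protein, did not peak early. Its FPKM was 22.5, 20.5 and 22.7 on day 0, 68.0, 67.3 and 68.2 on day 2, 77.5, 86.4 and 86.6 on day 4, and 93.6, 100.2 and 103.7 on day 6 in WT. Each day's libraries lay above all those of the day before. The change by day 6 was 2.42 ± 0.46 (limma, adjusted p = 0.000595). Mrpl52, of the large subunit, peaked early and returned: 415, 320 and 323 FPKM on day 0, 1087, 880 and 901 on day 2, and 397, 440 and 341 on day 6, where its range overlapped day 0.

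**Figure D2:**
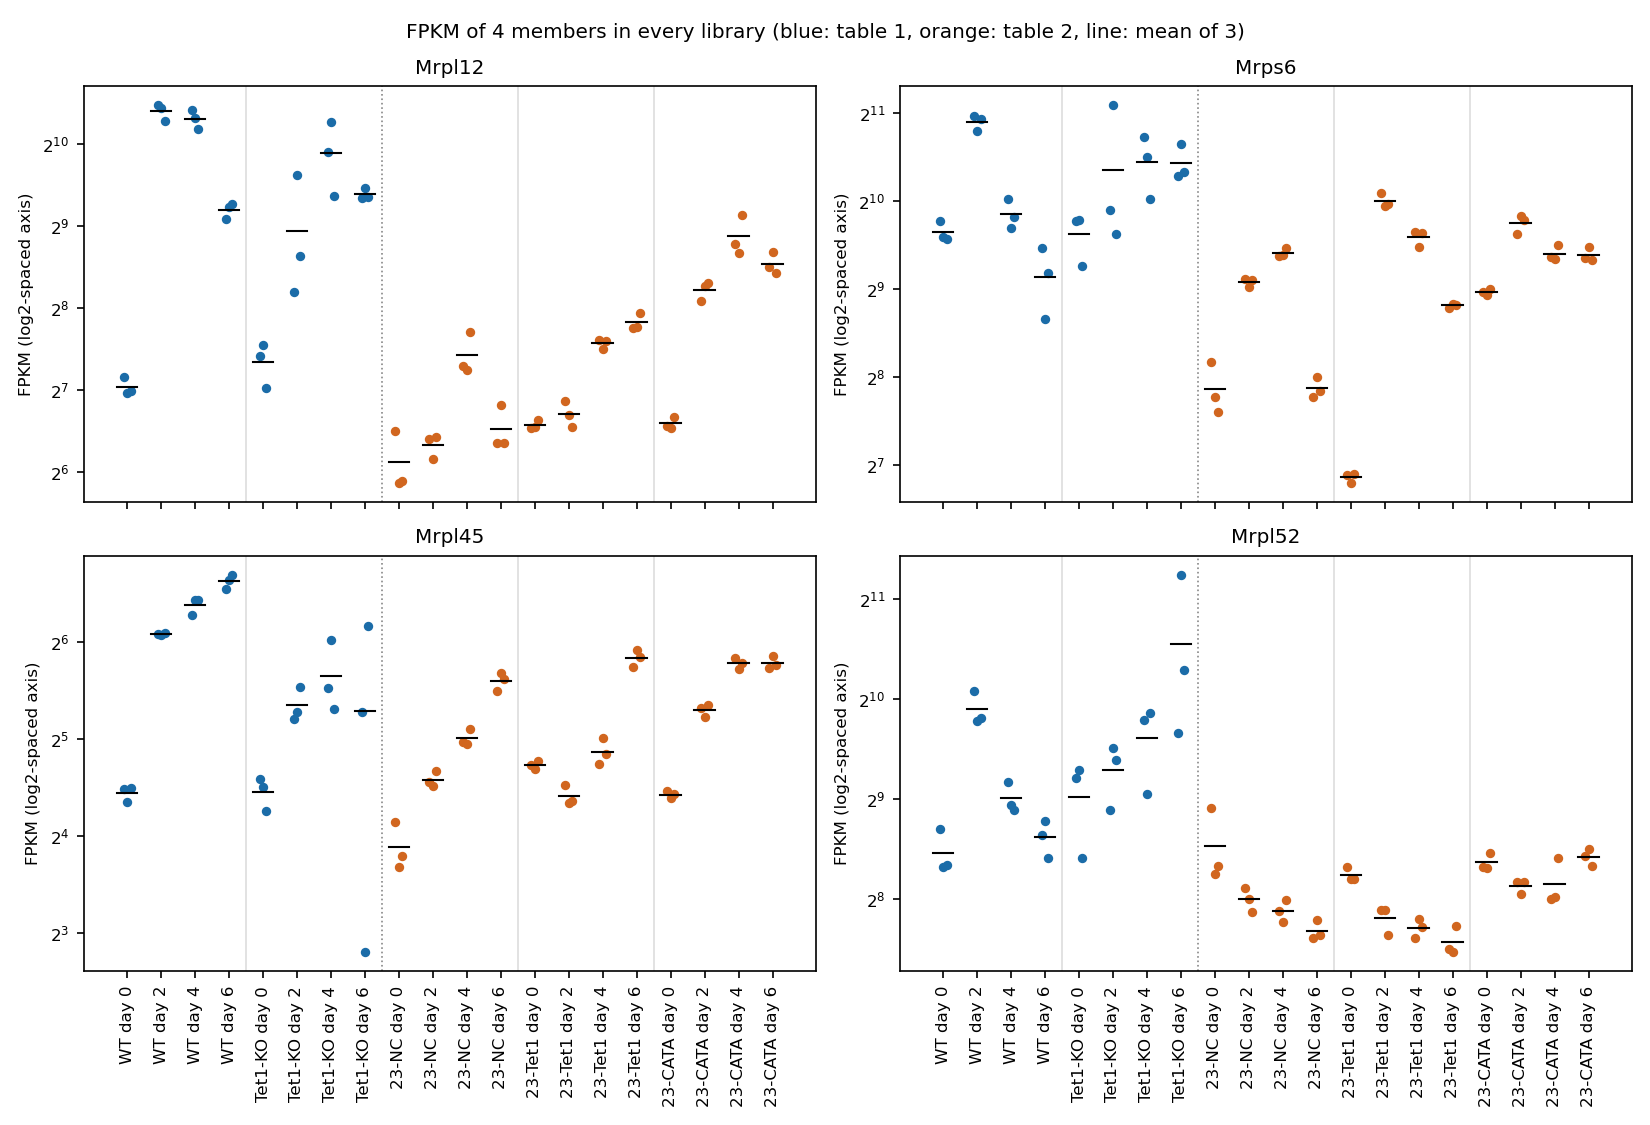
FPKM of Mrpl12, Mrps6, Mrpl45 and Mrpl52 (log-spaced axis) in every library by group, blue for WT and Tet1-KO and orange for the 23- populations, with a line at the mean of 3. These 4 were chosen after their values were seen for their different courses: Mrpl12 peaked on day 2 in WT (1429, 1388 and 1245), Mrpl45 on day 6 (93.6, 100.2 and 103.7).

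In Tet1-KO cells most members were highest on day 4, and the libraries of a group were spread widely. The large subunit median was 5.78 ± 0.35 on day 0, 6.22 ± 0.30 on day 2, 6.61 ± 0.13 on day 4 and 6.16 ± 0.40 on day 6. Against Tet1-KO day 0, day 2 had 10 of 49 large and 6 of 29 small members called higher (7.72% of all genes higher, 14.8% lower). Day 4 had 34 and 18 (12% and 34.7%) and day 6 had 23 and 12 (9.55% and 36%). No member was called lower on any day. Relative medians were 0.48, 0.99 and 0.81 for the large subunit and 0.50, 1.04 and 0.71 for the small. The highest mean was on day 4 for 35 large and 23 small members, and on day 2 for 1 member.

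Mrpl12 again led. Its FPKM in Tet1-KO was 171, 187 and 130 on day 0, then 293, 787 and 397 on day 2, 960, 1239 and 660 on day 4, and 649, 707 and 655 on day 6. Replicate 2 was the highest on days 2 and 4. The change was 1.58 ± 0.27 on day 2 (limma, adjusted p = 0.000629) and 2.81 ± 0.27 on day 4 (1.23e-06). Mrps18b, a small subunit S18 protein, changed by 1.18 ± 0.15 on day 2 (5.8e-05) and 1.85 ± 0.15 on day 4 (4.54e-07). The adipocyte marker sum split the same way between the day 2 libraries, at 8311, 48650 and 10580 FPKM, and on day 4 at 40280, 86080 and 23240. Counts depended on single libraries. Day 2 fell from 16 to 5 without its replicate 2, to 10 and 7 without Tet1-KO day 0 replicates 1 and 3, and rose to 34 when Tet1-KO day 6 replicate 2 was left out of the fit. Day 4 went from 52 to 29 without day 0 replicate 3 and to 34 without its own replicate 2, and day 6 from 35 to 53 without replicate 2. With the compared groups fitted alone, day 6 had 2. Without day 6 replicate 1, 6 members were called lower on day 6.

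Between the genotypes, the difference changed sign with the day. On day 0 the knockout was above WT: 11 large and 8 small members were called higher and none lower (5.83% of all genes higher, 11% lower), with a relative median of 0.49 in both subunits. On day 2 it was below WT: 19 large and 12 small members were called lower and none higher (6.76% of all genes lower, 16.2% higher), with medians of -0.72 and -0.80. With median-ratio scaling, 49 members were lower on day 2, and all genes were 11.6% lower and 11.3% higher. With length centring, 35 members were lower, and all genes were 14.1% lower and 10.1% higher. On day 4 just 3 of 78 were called (9.79% of all genes higher, 6.22% lower), all large: Mrpl36 at 0.53 ± 0.18 (limma, adjusted p = 0.0259), Mrpl10 at -0.63 ± 0.15 (0.0217) and Mrpl49 at -0.51 ± 0.13 (0.0368). At an unadjusted p below 0.05 day 4 had 4 higher and 8 lower. The 3 became 0 without WT replicates 1 or 2 or Tet1-KO replicates 1 or 3, 1 without WT replicate 3, and 14 without Tet1-KO day 4 replicate 2 or day 6 replicate 2. The split of 1 higher and 2 lower became 0 and 6 with quantile normalisation and 0 and 5 with median-ratio scaling or length centring. On day 6 the set split, with 10 large and 7 small members higher and 5 and 5 lower (15.7% of all genes higher, 29.7% lower).

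On day 0 the largest excess was in Mrps21, a small subunit protein, at 1.27 ± 0.23 (limma, adjusted p = 0.00183). Mrps12, the homologue of the bacterial decoding-site protein S12, followed at 1.19 ± 0.21 (0.00128). Mrps12 stood at 169, 222 and 154 FPKM in Tet1-KO and at 94.7, 77.9 and 77.9 in WT, with no overlap. Large subunit members were Mrpl33 (1.12 ± 0.27, 0.0127), Mrpl54 (1.08 ± 0.27, 0.0176), Mrpl13 (1.07 ± 0.23, 0.0064) and Mrpl51 (1.05 ± 0.22, 0.00604). Short transcripts in general were higher in this comparison: other genes under 1000 bases had a relative median of 0.57 and members of that length 0.59. With each library centred within transcript length classes, 7 members were called in place of 19, and Mrps21, Mrps12, Mrpl33 and Mrpl13 were not among them. The count was also 7 or 8 without any of WT replicates 2 and 3 or Tet1-KO replicates 1 and 2, and 38 without Tet1-KO day 6 replicate 2.

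On day 2, Mrpl12 was at 293, 787 and 397 FPKM in Tet1-KO against 1429, 1388 and 1245 in WT, with no overlap. Its difference was -1.75 ± 0.27 (limma, adjusted p = 0.000766). The next were Mrps7, a small subunit protein that binds ribosomal RNA, at -1.35 ± 0.24 (0.0028), and Mrpl55 at -1.28 ± 0.22 (0.00197). Mrpl28 (-1.22 ± 0.22, 0.00274) and Mrpl58, the peptidyl-tRNA hydrolase built into the large subunit (-1.22 ± 0.19, 0.00121), were close behind. Mrpl38 stood at -1.22 ± 0.34 (0.0317), a call lost without the filter and on leaving out any library of these groups but replicate 2 of the knockout. All 3 S18 proteins and 2 of the 3 stalk proteins were called lower, and 1 of 6 tunnel-exit proteins, against 6.76% of all genes, in groups too small to compare. The adipocyte marker sum was lower in the knockout as well (8311 to 48650 against 50480 to 65930). The count of 31 was 15, 16, 9 and 17 without WT replicates 1 and 2 and Tet1-KO replicates 1 and 3, and 60 without Tet1-KO day 6 replicate 2.

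On day 6, Mrpl52 led the higher members, at 812, 2431 and 1253 FPKM in Tet1-KO against 397, 440 and 341 in WT (1.98 ± 0.32, limma, adjusted p = 0.000248). Mrpl33 (1.64 ± 0.27, 0.00033), Mrpl13 (1.56 ± 0.23, 0.000136), Mrps6 (1.51 ± 0.30, 0.00158), Mrps21 (1.5 ± 0.23, 0.000234) and Mrps12 (1.41 ± 0.21, 0.000154) followed. Mrps21, Mrps12, Mrpl33 and Mrpl13 were thus among the highest on both day 0 and day 6. Mrps21, Mrpl33 and Mrps12 have short transcripts (446, 478 and 802 bases). Short transcripts in general were higher on day 6 too: other genes under 1000 bases had a relative median of 0.44 and members of that length 0.32. Lower were Mrpl45 (-1.62 ± 0.46, 0.00374), Mrpl38 (-1.47 ± 0.34, 0.000755), Mrps10 (-0.92 ± 0.35, 0.014), Mrps30 (-0.70 ± 0.20, 0.00174), Mrpl9 (-0.68 ± 0.21, 0.00267) and Mrps7 (-0.58 ± 0.24, 0.0141). Mrpl45 was at 38.8, 6.98 and 72.1 FPKM in Tet1-KO and at 93.6, 100.2 and 103.7 in WT. The lowest value, and the highest of Mrpl52, came from the library that stood apart. Mrpl44, Mrpl39, Mrps18a and Mrps2 were also lower, by -0.92, -0.60, -0.57 and -0.55. The number called lower was 5 without replicate 2 of the knockout, 24 and 22 without its replicates 1 and 3, and 6 without WT replicate 3. The number called in either direction was 41 without Tet1-KO replicate 3, against 27. With these 6 libraries fitted alone, 6 members were called higher and 0 lower, so that all 10 lower calls were lost. Median-ratio scaling gave 20 higher and 7 lower, and length centring turned the members' median from 0.26 to -0.02.

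The genotypes were also compared in their change from day 0 to day 4. In 77 of 78 members the difference (Tet1-KO minus WT) lay below the median of all genes, with a relative median of -0.69. Only Mrpl51 (-1.32 ± 0.31, limma, adjusted p = 0.0302) and Mrpl16 (-1.07 ± 0.27, 0.0469), both of the large subunit, were called (5.48% of all genes higher, 2.12% lower), and 23 were below an unadjusted p of 0.05. Mrpl51 was at 34.4, 31.1 and 26.9 FPKM on WT day 0 against 72.5, 74.1 and 41.1 in Tet1-KO. On day 4 it was at 169.5, 161.7 and 132.9 in WT against 129.6, 160.2 and 119.6 in Tet1-KO. So the genotypes stood apart on day 0 and overlapped on day 4. The number called was 0 or 1 without any single WT library of these days or without Tet1-KO replicates 1 and 2 of day 0 or 1 and 3 of day 4. It was 8 without Tet1-KO day 0 replicate 3, 9 without day 4 replicate 2 and 23 without day 6 replicate 2.

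**Figure D3:**
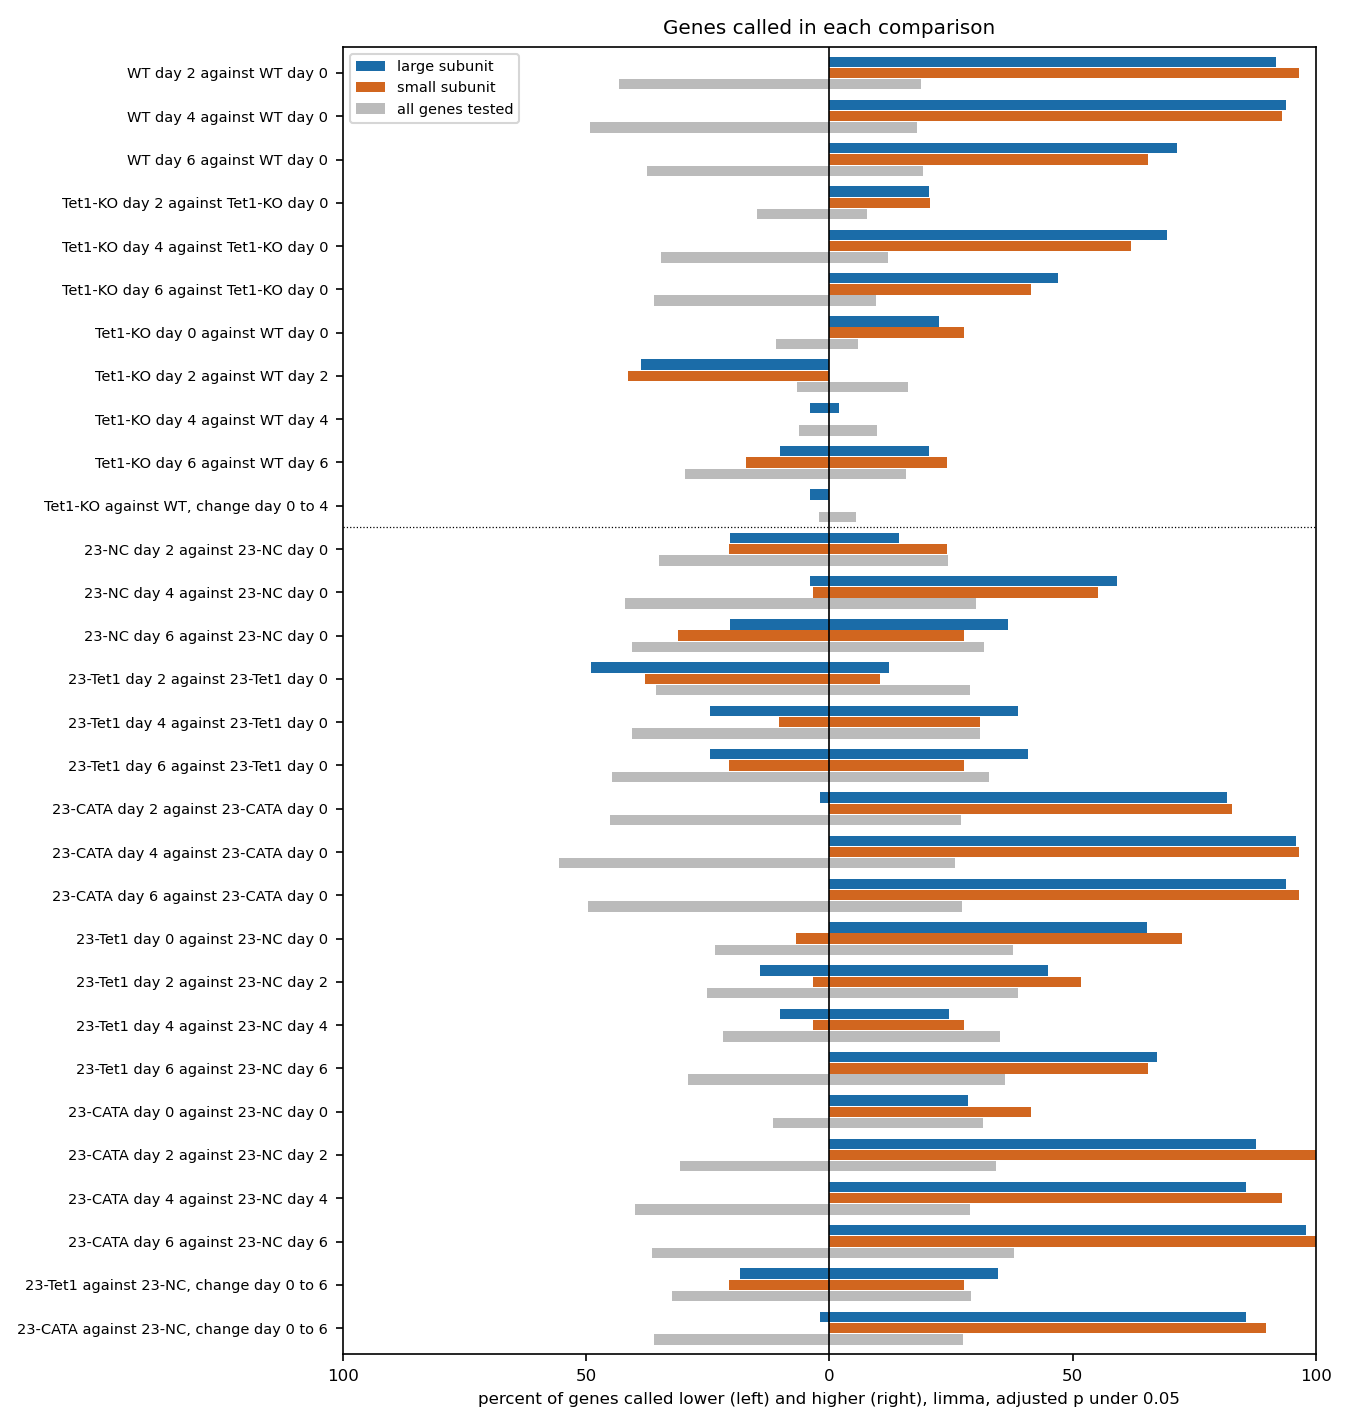
Percent of large subunit members, small subunit members and all genes tested that were called higher (right of 0) and lower (left) in each of 30 comparisons. WT day 2 has 45 of 49 large members higher against 18.9% of all genes, and Tet1-KO day 2 against WT day 2 has 19 of 49 lower against 6.76%.

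In 23-NC cells the members moved in both directions. The large subunit median was 4.91 ± 0.34, 4.80 ± 0.08, 5.25 ± 0.17 and 4.76 ± 0.04 on days 0, 2, 4 and 6. Against day 0, day 2 had 7 large and 7 small members higher and 10 and 6 lower (24.4% and 35.1% of all genes). Day 4 had 29 and 16 higher and 2 and 1 lower (30.2% and 42.1%), and day 6 had 18 and 8 higher and 10 and 9 lower (31.7% and 40.5%). The relative medians of all members were 0.03, 0.43 and 0.13, close to the behaviour of all genes on days 2 and 6. The highest mean was on day 4 for 37 large and 23 small members. The adipocyte marker sum peaked on the same day, at 20010 to 27300 FPKM, and was 10530 to 11930 on day 6.

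Mrpl45 was called higher on each later day in 23-NC, from 17.7, 12.8 and 13.9 FPKM to 45.1, 51.3 and 49.1 on day 6 (1.73 ± 0.08, limma, adjusted p = 2.94e-17). Mrpl1, a large subunit protein, reached 1.31 ± 0.11 (5.37e-11) and Mrpl38 1.07 ± 0.09 (5.26e-11) on day 6. Mrpl52 did the opposite, from 480, 305 and 321 FPKM to 195, 220 and 199 (-0.74 ± 0.12, 6.84e-07). Mrpl3 (-0.98 ± 0.08, 5.79e-13), Mrpl36 (-0.85 ± 0.09, 6.26e-10) and Mrps12 (-0.74 ± 0.14, 1.02e-05) were lower too. On day 4 the members lower than on day 0 were Mrpl52 (-0.52), Mrpl23 (-0.38) and Mrps15 (-0.12). Without 23-NC day 0 replicate 1, day 2 had 23 higher and 3 lower, day 6 had 10 lower, and Mrpl23 was no longer called on day 4. Day 6 had 17, 15 and 17 higher without day 0 replicates 2 and 3 and day 6 replicate 2. Median-ratio scaling gave 19 higher and 7 lower on day 2 and 32 and 14 on day 6, and length centring 25 and 10 on day 2.

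In 23-Tet1 cells more members were below than above day 0 on day 2, and the balance then turned. Day 2 had 6 large and 3 small members higher and 24 and 11 lower (28.8% and 35.6% of all genes). Day 4 had 19 and 9 higher and 12 and 3 lower (31.0% and 40.6%), and day 6 had 20 and 8 higher and 12 and 6 lower (32.8% and 44.7%). Relative medians over all members were -0.16, 0.18 and 0.25. The day of the highest mean was spread, with 15 large members on day 0, 12 on day 4 and 22 on day 6. The adipocyte marker sum was 15730 to 16600 on day 4 and 50080 to 57960 on day 6. Length centring gave 14 higher and 29 lower on day 2, and median-ratio scaling 39 and 10 on day 4 and 42 and 12 on day 6. Without day 0 replicate 3, day 2 had 5 members higher.

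Mrps6 was far outside this pattern. This small subunit protein was at 118, 112 and 120 FPKM on day 0, 1093, 987 and 1005 on day 2, 807, 717 and 801 on day 4, and 443, 458 and 454 on day 6, with no overlap between any pair of days. The change on day 2 was 3.17 ± 0.09 (limma, adjusted p = 1.3e-22), while the next highest member, Mrpl41, was at 0.58 ± 0.15 (0.00217). Mrps6 shares exon bases on the same strand with Slc5a3, the myo-inositol transporter gene, and reads from the shared part could be given to either. Slc5a3 had a mean of 8.04 FPKM on day 0 in 23-Tet1, then 106.1, 93.3 and 49.6, the same order of days as Mrps6. In 23-NC, Mrps6 was at 290, 219 and 195 FPKM on day 0, 665, 670 and 712 on day 4 and 220, 257 and 229 on day 6, with Slc5a3 means of 31.7 on day 0, 92.9 on day 4 and 41.0 on day 6. In 23-CATA, Mrps6 was at 504, 492 and 514 on day 0 and 659, 652 and 726 on day 4, while the Slc5a3 mean went down from 102.7 to 34.5. How fragments were shared between these genes was not tested.

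Among members lower in 23-Tet1, Mrpl23, a tunnel-exit protein, went from 101.0, 114.1 and 113.0 FPKM on day 0 to 58.7, 48.9 and 42.6 on day 2 and stayed near that level (-1.08 ± 0.15 on day 2, limma, adjusted p = 1.68e-07). Mrps15 went from 111.0, 108.8 and 111.6 to 64.9, 63.5 and 62.1 (-0.75 ± 0.09, 7.08e-09). Mrpl13 (-0.73 ± 0.11, 2.97e-07), Mrpl30 (-0.71 ± 0.14, 2.03e-05), Mrpl33 (-0.66 ± 0.14, 6.66e-05) and Mrpl47 (-0.60 ± 0.15, 0.000481) were the next lowest on day 2. By day 6 Mrpl12 (1.36 ± 0.14, 4.6e-09), Mrpl45 (1.19 ± 0.08, 5.24e-13), Mrpl34 (1.07 ± 0.13, 7.1e-08) and Mrpl17 (1.06 ± 0.08, 7.23e-12) stood highest after Mrps6, all of the large subunit.

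In 23-CATA cells nearly the whole set rose. The large subunit median was 5.15 ± 0.08 on day 0, 5.64 ± 0.08 on day 2, 6.03 ± 0.07 on day 4 and 5.96 ± 0.11 on day 6. On day 2, 40 large and 24 small members were higher and 1 large member lower (27% of all genes higher, 45.2% lower). On day 4, 47 and 28 were higher and none lower (25.8% and 55.6%), and on day 6, 46 and 28 higher and none lower (27.3% and 49.7%). With length centring, 2 members were lower on day 4 and 2 on day 6. Relative medians were 0.86, 1.25 and 1.08 for the large and 0.73, 1.25 and 1.03 for the small subunit. The member lower on day 2 was Mrpl23 (-0.20 ± 0.15, limma, adjusted p = 0.0343), a call that median-ratio scaling, dropping the filter, or leaving out any day 0 library or day 2 replicates 1 or 2 ended. The adipocyte marker sum was already 2432 to 2591 FPKM on day 0 and reached 63300 to 70010 on day 4.

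Mrpl12 rose from 94.4, 93.0 and 102.1 FPKM on day 0 to 439, 407 and 564 on day 4 in 23-CATA, with no overlap (2.60 ± 0.14, limma, adjusted p = 7.88e-15). Mrpl46, from the divergent gene pair, went from 12.4, 11.1 and 12.8 to 49.8, 49.2 and 53.9 (2.33 ± 0.14, 1.41e-13). Its neighbour Mrps11 went from 15.9, 17.2 and 16.9 to 34.7, 33.4 and 42.5, so both genes of the pair were higher and Mrpl46 by more. Mrpl20 (2.32 ± 0.14, 6.78e-14), Mrpl51 (2.03 ± 0.12, 4.57e-14), Mrpl38 (1.98 ± 0.09, 2.99e-16) and Mrpl55 (1.89 ± 0.15, 6.64e-11) followed. Mrpl12, Mrpl20, Mrpl38, Mrpl51 and Mrpl55 were thus among the 6 highest both in WT on day 2 and in 23-CATA on day 4.

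**Figure D4:**
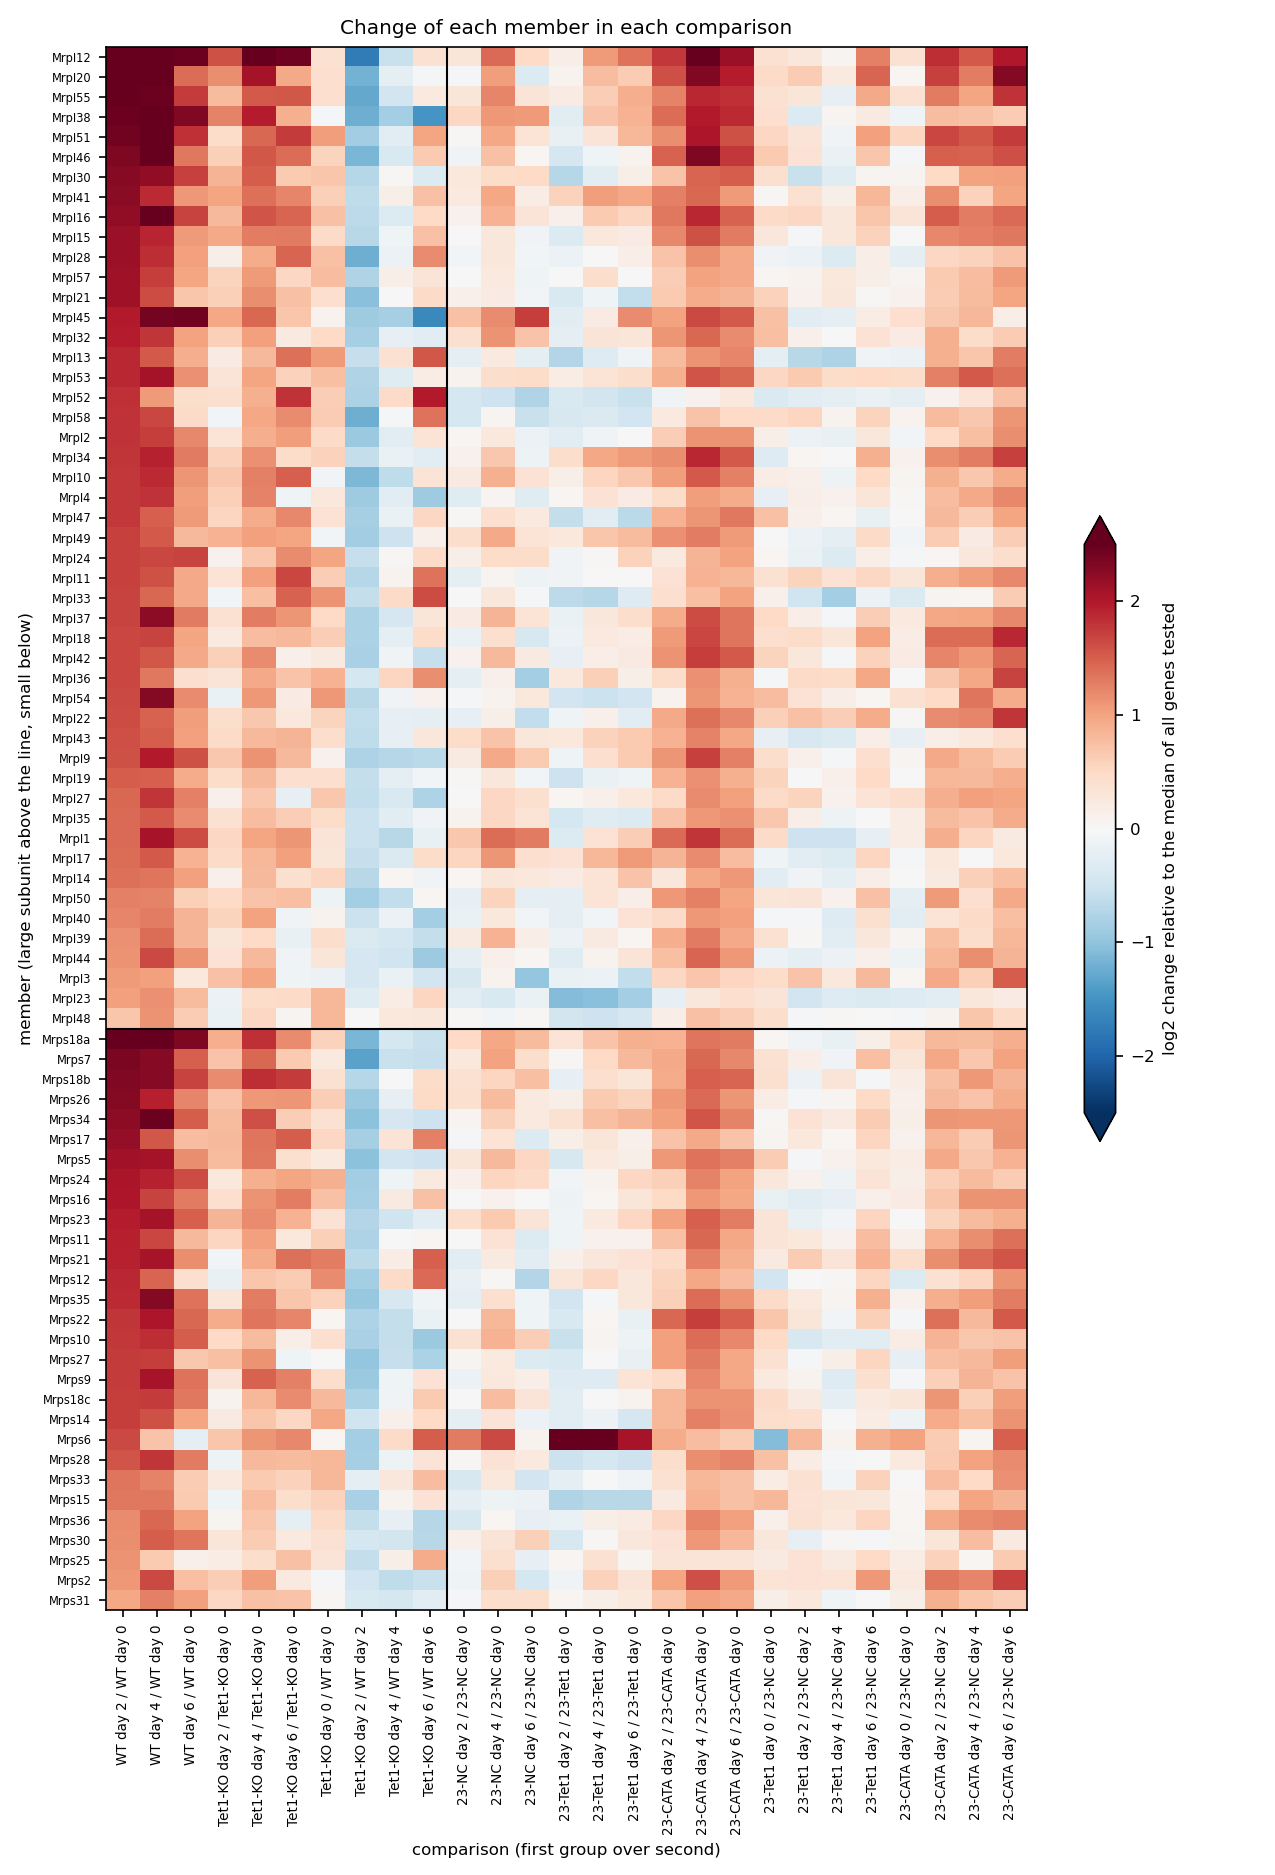
Log2 change of each member minus the all-gene median, in 27 comparisons (columns), with large subunit members above the line and small below, each ordered by WT day 2. Red is higher and blue lower. The columns of WT and of 23-CATA against their own day 0 are red almost throughout. Relative medians there were 1.72 (WT day 2, large) and 1.25 (23-CATA day 4, large). In the column of 23-CATA against 23-NC on day 0 the median was 0.08. Mrps6 stands out in the 23-Tet1 columns at 3.17 on day 2.

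The 3 populations of the second table were compared on each day. These comparisons share the 23-NC libraries. For 23-CATA against 23-NC, day 0 had 14 large and 12 small members higher (31.6% of all genes higher, 11.7% lower), day 2 had 43 and 29 (34.3% and 30.7%), day 4 had 42 and 27 (28.9% and 39.9%) and day 6 had 48 and 29 (38.0% and 36.4%), with none lower. The relative medians were 0.08, 0.82, 0.79 and 1.00. On day 6 the highest were Mrpl20, at 118.4, 117.6 and 126.3 FPKM against 23.3, 23.9 and 23.5 in 23-NC (2.29 ± 0.14, limma, adjusted p = 3.71e-15), Mrpl12 (2.00 ± 0.14, 1.98e-13), Mrpl18 (1.88 ± 0.10, 1.29e-16) and Mrpl55 (1.81 ± 0.15, 3.05e-12). On day 0 Mrps6 led at 1.01 ± 0.09 (2.47e-11). The day 0 count was 50 without 23-NC replicate 1, 16 and 15 without its replicates 2 and 3, and 17 without 23-CATA replicate 3. Its split of 26 higher and 0 lower became 17 and 7 with quantile normalisation, 15 and 2 with median-ratio scaling, and 10 and 13 with length centring. On the later days, length centring gave 67 higher and 4 lower (day 2), 65 and 4 (day 4) and 67 and 2 (day 6). The members' medians were then 0.69, 0.55 and 0.62.

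For 23-Tet1 against 23-NC, day 0 had 32 large and 21 small members higher and 2 small lower (37.8% of all genes higher, 23.5% lower). Day 2 had 22 and 15 higher and 7 and 1 lower (38.7% and 25.2%), day 4 had 12 and 8 higher and 5 and 1 lower (35% and 21.9%), and day 6 had 33 and 19 higher and none lower (36% and 29%). The relative medians were 0.35, 0.13, -0.01 and 0.45. The day 0 members that were lower were Mrps6 (-1.08 ± 0.09, limma, adjusted p = 1.95e-10) and Mrps12 (-0.48 ± 0.14, 0.0217), the latter no longer called without 23-NC replicate 1. On day 2 Mrps6 was instead the highest (0.82 ± 0.09, 6.47e-10). Mrpl13, Mrpl33, Mrpl1 and Mrpl43 were lower on both day 2 and day 4, Mrpl13 by -0.69 ± 0.11 (1.8e-05) and -0.78 ± 0.11 (2.91e-06). The other members lower on day 2 were Mrpl30, Mrpl23, Mrps10 and Mrpl38 (-0.56 to -0.34), and on day 4 Mrpl17 and Mrps9 (-0.34 and -0.33). On day 6 Mrpl20 (1.45 ± 0.14, 1.1e-10), Mrpl12 (1.25 ± 0.14, 4.06e-09) and Mrps2 (1.09 ± 0.07, 6.36e-15) were highest. Scaling moved the day 2 split from 37 and 8 to 32 and 13 (quantile), 27 and 13 (median-ratio) or 29 and 19 (length centring). The day 4 split of 20 and 6 became 11 and 15 or 19 and 17 under median-ratio scaling and length centring, and its median changed sign to 0.05 with quantile normalisation and 0.03 with length centring. Length centring gave 50 and 8 on day 0 and 48 and 6 on day 6. Without 23-NC replicate 1, day 4 had 13 higher. Without 23-Tet1 replicate 2, day 2 had 4 lower, and without 23-NC replicate 3, day 0 had 5 lower.

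The change from day 0 to day 6 was tested for a difference from 23-NC. For 23-CATA, 68 members had a larger change and 1 a smaller (27.5% and 36% of all genes). The largest were Mrpl20 (2.24 ± 0.19, limma, adjusted p = 1.13e-10), Mrpl22 (1.76 ± 0.18, 3.63e-09) and Mrpl18 (1.69 ± 0.14, 4.75e-11). The 1 smaller was Mrpl45 (-0.25 ± 0.11, 0.0105), a call lost with median-ratio scaling and without 23-NC day 0 replicate 2. Mrpl45 was at 22.1, 21 and 21.6 FPKM on day 0 in 23-CATA, above all 3 libraries of 23-NC (17.7, 12.8 and 13.9). On day 6 it was at 53.1, 58.0 and 54.4 in 23-CATA against 45.1, 51.3 and 49.1 in 23-NC. For 23-Tet1, 25 had a larger and 15 a smaller change (29.1% and 32.3% of all genes), and without 23-NC day 0 replicate 1 the larger were 14. Mrps6 (1.96 ± 0.13, 1.93e-13), Mrpl34 (1.20 ± 0.18, 2.31e-06) and Mrps12 (1.01 ± 0.20, 0.000147) were the largest, and Mrpl47 (-0.92 ± 0.21, 0.000327), Mrps28 (-0.76 ± 0.20, 0.00102) and Mrps10 (-0.76 ± 0.15, 5.45e-05) the smallest.

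The members were also divided by structure, with the subunit still taken from the symbol, so that Mrps18a, Mrps30 and Mrps36 were counted as small. In WT on day 2, relative medians were 1.73 for 30 large members with a bacterial counterpart (29 higher), 1.72 for 19 large mitochondria-specific members (16 higher), 1.83 for 16 small members with a counterpart (16 higher) and 1.79 for the other 13 small members (12 higher). The 3 stalk genes, the 6 tunnel-exit genes and the 3 S18 genes were all called higher, with medians of 1.77, 1.67 and 2.32. In 23-CATA against 23-NC on day 6, the tunnel-exit genes had 5 of 6 higher and a median of 0.35, against 1.20 for the stalk, 0.90 for the S18 genes and 1.01 and 0.94 for the large classes. In 23-NC on day 6 the medians of the 4 classes lay between -0.05 and 0.24. For holders of the ETS, NRF1 and YY1 words, the median in WT on day 2 was 1.71 for the 12 with the ETS word against 1.77 for 57 without, 1.66 for the 8 with NRF1 against 1.76 for 61, and 1.82 for the 12 with YY1 against 1.74 for 57. No difference between classes or holders was tested, and holders of the other words were not compared.

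Other genes of mitochondrial translation were counted in WT on day 2, when 18.9% of all genes were called higher and 43.2% lower. All 5 mitoribosomal proteins without an Mrp symbol rose: Aurkaip1 (1.76), Gadd45gip1 (1.67), Dap3 (1.63), Chchd1 (1.57) and Ptcd3 (1.55). Of 14 translation factors 9 rose and none fell (median 1.31), led by the elongation factors Tufm (2.47 ± 0.29, limma, adjusted p = 4.91e-06) and Tsfm (2.41 ± 0.20, 8.12e-08). Of 22 assembly and rRNA factors 12 rose and 1 fell (1.11), and of 19 aminoacyl-tRNA synthetases 10 rose and none fell (1.02). The 16 regulators divided, with 6 up and 4 down (0.71). The coactivator Ppargc1b (3.07 ± 0.31, 7.24e-07) and the nuclear receptor Esrra (2.39 ± 0.55, 0.00364) rose. Gabpa (-1.12 ± 0.21, 6.35e-06) and Yy1 (-0.86 ± 0.16, 1.97e-06), whose families bind the ETS and YY1 words, fell, and Nrf1 was at -0.18 ± 0.32 (0.133). In 23-CATA on day 6 Ppargc1b (2.15 ± 0.11, 4.43e-16) and Esrra (1.52 ± 0.11, 4.46e-12) were again higher. Myc was higher in WT on day 2 (1.84 ± 0.50, 0.0171) and lower in 23-CATA on day 6 (-1.14 ± 0.06, 2.82e-18).

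Beside the members, 72 of 82 nuclear genes for respiratory chain and ATP synthase subunits rose in WT on day 2 (median 2.21, with 18.9% of all genes higher), and 77 on day 4 (2.71, with 18.1%). The 79 cytosolic ribosomal protein genes parted from both: 64 rose on day 2 (1.43), but on day 4 just 4 were higher and 4 lower (0.46, with 49.2% of all genes lower), when 73 of 78 members were still higher. In 23-CATA on day 6 all 81 respiratory genes tested were higher (1.84) and the cytosolic ribosomal genes were 3 higher and 54 lower (-0.23), where 27.3% of all genes were higher and 49.7% lower. In Tet1-KO against WT on day 2, 39 respiratory genes were lower (-0.92) and 1 cytosolic ribosomal gene (-0.29), with 6.76% of all genes lower. On day 6 of that comparison 50 cytosolic ribosomal genes were higher and none lower (1.23), while the respiratory genes had 19 higher and 20 lower (0.04), with 15.7% of all genes higher and 29.7% lower.

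Transcript length went with the change of all genes in some comparisons and hardly in others. Members are short, with a median transcript of 1224.5 bases (440 to 6073) against 2645 for all genes tested. In WT on day 2, other genes had relative medians of 0.86 under 1000 bases, 0.26 from 1000 to below 2500 and -0.31 from 2500 on, and members 1.79, 1.75 and 1.79. In 23-CATA on day 6 the values were 0.38, 0.13 and -0.13 for other genes and 1.04, 1.12 and 1.04 for members. In Tet1-KO against WT on day 2 they were -0.29, -0.08 and 0.09 for others and -0.78, -0.78 and -0.79 for members. In these comparisons the members' change was thus about the same in each class where that of other genes was not. It was less even in some others, such as Tet1-KO against WT on day 4 (-0.04, -0.43 and -0.21 for members). In 23-Tet1 on day 2 against day 0, other genes hardly differed between the classes (-0.0099, 0.0052 and -0.0068). Members there had -0.09, -0.15 and -0.29. In Tet1-KO against WT on day 0, others had 0.57, 0.15 and -0.18 and members 0.59, 0.40 and 0.44, so that short members there had about the median of other short genes. With length centring, the median of all members was 1.26 in WT on day 2, against 1.76 without it. In 23-CATA on day 6 it was 0.80, against 1.075 without it. The origin of the length dependence was not tested.

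**Figure D5:**
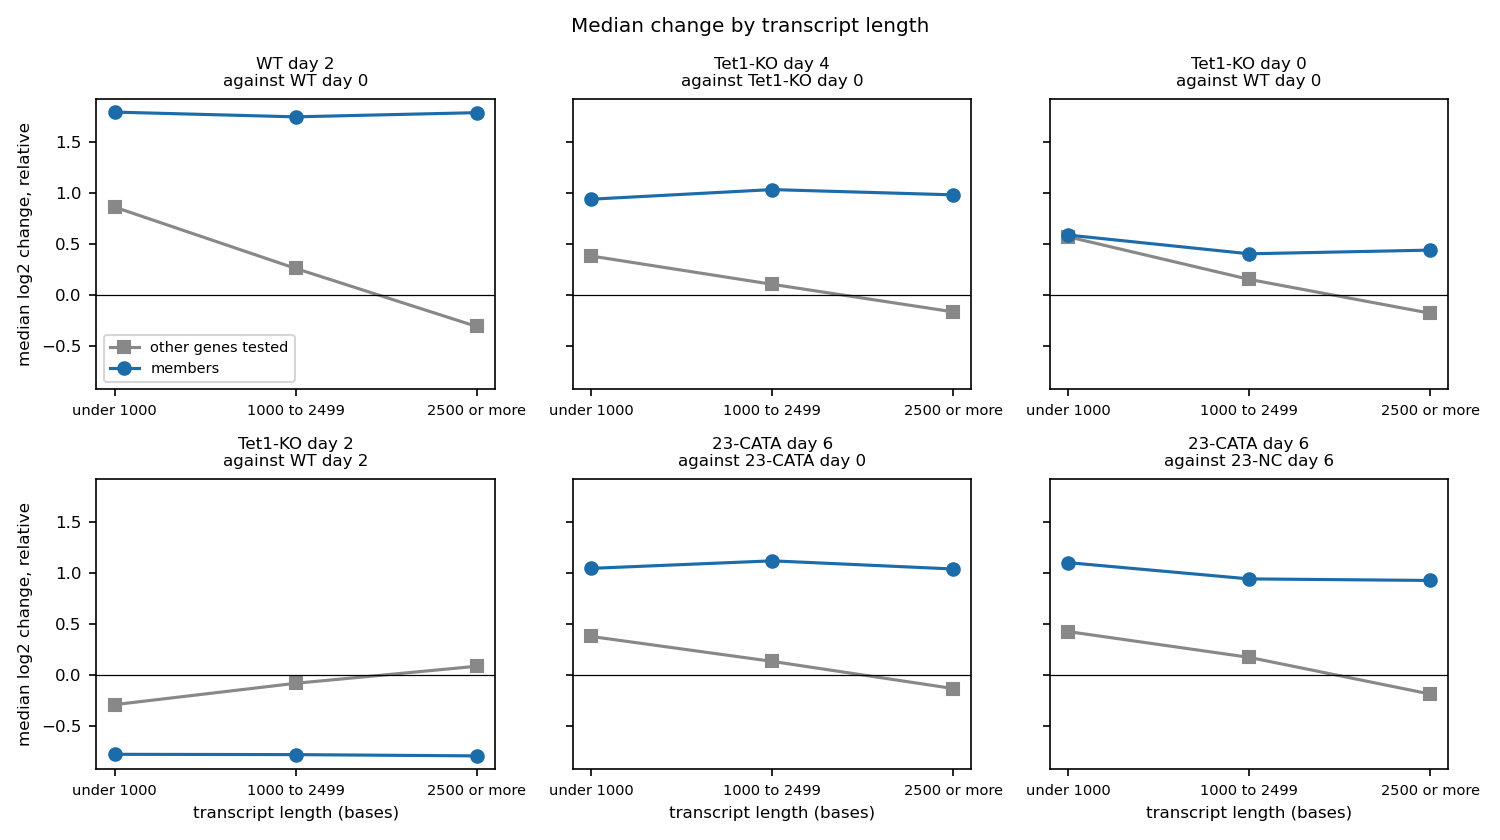
Median log2 change relative to all genes tested for members (circles) and other genes (squares) in 3 classes of transcript length, in 6 comparisons. Members stay near 1.79 in WT on day 2 while other genes go from 0.86 to -0.31, and on day 0 Tet1-KO against WT members and other genes under 1000 bases sit at 0.59 and 0.57.

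Some members cannot be counted cleanly. The annotation gives 26 members exon bases shared with another gene, 22 of them on the opposite strand and 5 on the same strand, and whether the counting used strand is not given in the sources used here. Mrpl12 overlaps Gm16755 on the opposite strand and Mrpl10 overlaps Gm11574. The annotation also lists 5 pseudogenes with member-like symbols, so near-identical sequence elsewhere could take or give fragments.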

How the data were processed

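PolyA RNA was sequenced from 60 libraries, 3 in each of 20 groups. Expression values are FPKM per gene as deposited by the authors in 2 tables, and the submitters' processing notes name STAR 2.4.1a, RSEM and the build mm10; filters and strand use are not given in the sources used here. No sample column was left unmapped. Among the symbols of the second table, 26 had been turned into dates, none of a member. The 2 tables were analysed apart and never tested against each other.

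Genes with an FPKM of at least 1 in at least 3 libraries of a table were tested as log2(FPKM + 1), a fold change that understates low genes. All groups of a table were fitted together with limma 3.58.1 (R 4.3.3, trended eBayes), in 11 and 19 comparisons, with Benjamini-Hochberg adjustment over all genes tested and a threshold of 0.05. The code was tested on simulated data. Tables and figures used Python 3.11.15 with pandas 2.3.3, numpy 2.4.6, scipy 1.17.1 and matplotlib 3.10.9. Lengths came from GENCODE M21 and promoters from RefSeq on GRCm38.p6, the assembly that mm10 renders.

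Named members were, per comparison, up to 6 with the largest rise and 6 with the largest fall among those called with groups that do not overlap, those against the majority direction, the most and least abundant, those with the widest and narrowest range, and fixed lists. Members, lists and some alternatives were chosen with earlier results of these data known. Depth per library was estimated from the spacing of low FPKM values in a search range narrowed after first results were seen, and 1 library gave no clear step. Alternatives were another pseudocount (0.1), no filter, quantile and median-ratio scaling, a replicate block, library weights, the compared groups alone and each library left out; centring within 6 transcript length classes was chosen after seeing the data. Deviations of same-numbered samples correlated above 0.1 in every pair in 1 of 27 comparisons (23-CATA against 23-NC on day 4). This does not establish that the samples were paired. A replicate block kept 69 members called in that comparison.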

Additional observations from a re-analysis of the deposited data

Results flagged for a closer look

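The change over days differed between populations, by an interaction test in limma, for 2 members in Tet1-KO against WT from day 0 to day 4, both lower (2.12% of all genes tested were lower and 5.48% higher). It differed for 40 members in 23-Tet1 against 23-NC from day 0 to day 6, 25 with a larger and 15 with a smaller change, at 29.1% and 32.3% of all genes tested. It differed for 69 members in 23-CATA against 23-NC over the same days, 68 larger and 1 smaller, at 27.5% and 36% of all genes. The adipocyte marker sum on day 6 was 10530 to 11930 FPKM in 23-NC, 50080 to 57960 in 23-Tet1 and 54670 to 56040 in 23-CATA, and its part in these differences was not tested.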

How the results depend on the processing

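Of 447 recomputed counts of members called, 375 stayed within 1.5 times the value reported and 72 did not. The causes were not tested. All 3 WT counts and all 6 day counts of 23-Tet1 and 23-CATA stayed within that range under every alternative run. In such totals, opposite moves of the higher and lower calls can cancel. By direction, 23-Tet1 day 2 went from 9 higher and 35 lower to 14 and 29 with length centring. With median-ratio scaling, its day 4 went from 28 and 15 to 39 and 10, and its day 6 from 28 and 18 to 42 and 12. Library weights, whose estimation warned of poor convergence in both tables, gave 39 called for Tet1-KO day 2 against day 0, 63 for day 6, 68, 71 and 59 for Tet1-KO against WT on days 0, 2 and 4, 74 for the difference in change from day 0 to day 4, 47 for 23-NC day 2, 45 for 23-Tet1 against 23-NC on day 4 and 67 for 23-CATA against 23-NC on day 0. Fitting the compared groups alone gave 2 for Tet1-KO day 6, 42, 54, 1 and 6 for Tet1-KO against WT on days 0, 2, 4 and 6 (on day 6 none of them lower), 18 for the difference in change, 13 and 22 for 23-NC days 2 and 6, and 11 for 23-CATA against 23-NC on day 0. Median-ratio scaling gave 53 for Tet1-KO day 6, 49 and 5 for Tet1-KO against WT on days 2 and 4, 6 for the difference in change and 17 for 23-CATA against 23-NC on day 0. Quantile normalisation gave 6 for Tet1-KO against WT on day 4 and 6 for the difference in change, length centring 7, 5 and 1 for day 0, day 4 and the difference in change, and a pseudocount of 0.1 gave 5 for day 4 and 1 for the difference in change.

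Leaving out 1 library gave 5 to 34 for Tet1-KO day 2, 29 to 70 for day 4 and 28 to 53 for day 6. For Tet1-KO against WT it gave 7 to 38 on day 0, 9 to 60 on day 2, 0 to 14 on day 4, 20 to 41 on day 6 and 0 to 23 for the difference in change, and for 23-CATA against 23-NC on day 0, 15 to 50. A replicate block left 73 called for WT day 2 and moved no count by over 1.5 times; deviations of same-numbered samples correlated from -0.468 to 0.42. Of 3435 recomputed calls of named members, 125 were lost, 83 of them on leaving out a library, and 0 reversed. Named members were picked largely for the largest called changes without overlap, so these figures do not describe the other members. Depth is known only approximately, so no counting error was given.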
